A study of Mus musculus with 6 samples.

Results

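The miR-200 family (miR-200a, miR-200b, miR-200c, miR-141 and miR-429), the miR-192, miR-194 and miR-215 group and miR-203 are best known from epithelia, and their reads were followed in small RNA libraries of murine bone marrow monocytes/macrophages (BMMs). The members are 10 hairpins of 1174 mouse miRNA hairpins in the GENCODE M21 annotation, chosen by name and selected on their share of hairpin reads, as epithelial miRNAs of low level in these cultures. Their levels are therefore given as a description, with no test of the level itself. For each sample, reads of at least 18 nt that matched a member hairpin exactly, with up to 3 unmatched bases at the 3′ end, were summed by arm and divided by all reads matched to any hairpin, as reads per 1000000 hairpin reads (RPM). An arm is the side of the hairpin, 5p or 3p, on which a read lies. Over the 6 samples the members took 26208 reads.

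All 6 cultures came from bone marrow of wild type C57BL/6 mice. The control group (3 samples) received PBS, and the LPS group (3 samples) received 5 pg/ml LPS, the endotoxin of Gram-negative bacteria, for 4 h. Nothing in the labels says whether the samples of a group came from separate mice or cultures, so p-values measure only the spread between these samples, which may be technical. The labels give DMEM as the medium and the methods of the study give RPMI.

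Hairpin reads numbered 1713855 to 2557224 in the control samples and 1498849 to 10927393 in the LPS samples, or 61.6% to 71% of all reads. LPS replicate 2 stood apart. It was the deepest library, and sequences read a single time made up 18.6% of its distinct sequences but 67.1% to 74.6% of those in the other 5. It also held 55427 RPM of miR-146a-5p and 212 of miR-155-5p, both known to be induced by LPS. The other 5 samples, LPS replicates 1 and 3 among them, held 2822 to 4515 and 49 to 75.3. Other LPS-inducible miRNAs went both ways in LPS replicate 2, by normalized count over the mean of the other 5 samples. miR-132-3p was at 2.11 times that mean, miR-147-3p at 1.47 and miR-212-3p, of low count, at 0.195. Group means, fold changes and calls that rest on LPS replicate 2 are given with and without it. A level equal to 3 reads, taken as the limit for a count of 0, was 0.275 RPM in LPS replicate 2 and 0.947 to 2.00 RPM in the other samples. These limits, and the 95% Wilson intervals below, cover counting error only.

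miRNAs guide Argonaute proteins to messenger RNAs through their seed, the bases 2 to 8 of the mature strand, and miRNAs with the same seed share most predicted targets. The miR-200 family holds epithelial cells in their differentiated state by repressing the transcription factors Zeb1 and Zeb2. miR-192, miR-194 and miR-215 are abundant in gut, liver and kidney epithelium and are induced by the tumour suppressor p53, and miR-203 is abundant in skin, where it limits the proliferation of epidermal progenitors.

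The mature strands that carry nearly all reads of the members are shown first, since the family relations rest on them. They are the RefSeq sequences of GRCm38.p6, 5′ to 3′, with the seed in capitals. All 10 hairpins matched between RefSeq and GENCODE. The first 3 strands share the seed AAUACUG, the next 2 share AACACUG, and miR-192-5p and miR-215-5p share UGACCUA, while miR-194-5p and miR-203-3p have seeds of their own.
miR-200b-3p: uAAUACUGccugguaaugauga
miR-200c-3p: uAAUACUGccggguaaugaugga
miR-429-3p: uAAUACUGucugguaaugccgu
miR-200a-3p: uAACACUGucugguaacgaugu
miR-141-3p: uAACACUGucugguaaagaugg
miR-192-5p: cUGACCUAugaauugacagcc
miR-215-5p: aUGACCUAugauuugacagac
miR-194-5p: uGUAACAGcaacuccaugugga
miR-203-3p: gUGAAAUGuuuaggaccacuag

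Over the bases both have, miR-200b-3p and miR-200c-3p differ at 2 of 22 positions, U11G and A22G, with the base of miR-200b-3p first and positions counted from 1 at the 5′ end. miR-200a-3p and miR-141-3p also differ at 2 of 22 positions, C17A and U22G, with miR-200a-3p first. Between the seed groups, miR-200b-3p and miR-200a-3p differ by U4C inside the seed and by 3 further bases. miR-192-5p and miR-215-5p differ at 3 of 21 positions. None of the 202 distinct reads of the members matched an arm outside the members equally well, so no member read was shared with another miRNA.

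The members lie in 4 clusters and 1 lone hairpin. On chromosome 4 of GRCm38, minus strand, Mir200b (156055681 to 156055750), Mir200a (156054896 to 156054985) and Mir429 (156053905 to 156053987) are separated by 695 and 908 bases and lie in introns of the protein-coding gene Ttll10. Mir429 also overlaps an exon of the non-coding transcript Gm13648. On chromosome 6, minus strand, Mir200c (124718322 to 124718390) and Mir141 (124717914 to 124717985) are 336 bases apart in an intron of the non-coding gene Gm15884. Mir194-2 (6264643 to 6264728) and Mir192 (6264844 to 6264932) are 115 bases apart on the plus strand of chromosome 19, outside annotated genes. Mir194-1 (185313319 to 185313385) and Mir215 (185313581 to 185313692) are 195 bases apart on the plus strand of chromosome 1, within the non-coding gene 2010103J01Rik and opposite an intron of Iars2. Mir203 (chromosome 12, 112130880 to 112130955, plus strand) lies outside annotated genes.

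Of the members, miR-192-5p did not have a low level. It was at 1050 ± 131 RPM in the control samples (SD, n = 3) and ranked 63 of the 974 arms with reads by its mean over the 6 samples. The next member, miR-194-5p, was at 45.8 ± 8.30 in the control samples, and miR-141-3p and miR-200b-3p followed at 31.2 ± 5.83 and 31.0 ± 3.94. Below them stood miR-429-3p at 16.5 ± 2.69, miR-200a-3p at 7.80 ± 4.23, miR-215-5p at 5.30 ± 1.31, miR-203-3p at 3.97 ± 1.08 and miR-200c-3p at 3.25 ± 0.781 (SD, n = 3 for each). The control samples of miR-194-5p overlapped those of miR-141-3p, which overlapped those of miR-200b-3p. The control samples of the last 4 arms also overlapped from each to the next. The remaining neighbours in this order did not overlap. In bulk samples, fewer cells of a type and less RNA per cell cannot be told apart. Summed, the 5 miR-200 hairpins came to 91.5 ± 11.5 RPM in the control samples, against 1102 ± 127 for miR-192, miR-194 and miR-215 (SD, n = 3).

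**Figure D1:**
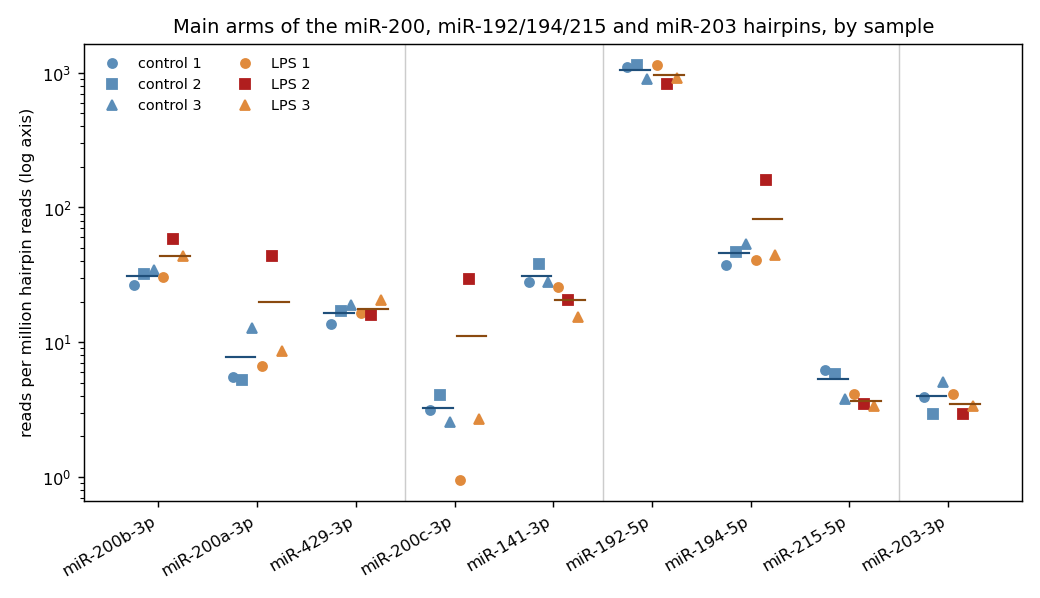
RPM (log axis) of the 9 main arms of the members in each of the 6 samples. Points are samples (blue control, orange and red LPS, with LPS replicate 2 in red), and short lines are group means of 3 samples. miR-192-5p stands at 825 to 1148 in every sample, while LPS replicate 2 lies above the other 5 samples for miR-200b-3p, miR-200a-3p, miR-200c-3p and miR-194-5p.

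In the cluster on chromosome 4, miR-200b-3p had 26.6, 32.1 and 34.2 RPM in control replicates 1, 2 and 3 and 30.3, 57.9 and 43.4 in LPS replicates 1, 2 and 3. LPS replicates 2 and 3 lay above all control samples, and LPS replicate 1 lay among them, though in each of the 3 pairs with the same replicate number the LPS sample was the higher one. miR-200a-3p had 5.47, 5.25 and 12.7 RPM in the control samples and 6.63, 43.7 and 8.67 in the LPS samples. Here LPS replicate 2 alone stood out, with a Wilson interval of 39.9 to 47.7 RPM, and LPS replicates 1 and 3 lay within the control range. miR-429-3p, the neighbour with the seed of miR-200b, had 13.7, 16.9 and 19.0 RPM in the control samples and 16.4, 15.9 and 20.7 in the LPS samples, so the groups overlapped and LPS replicate 2 was not raised.

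The cluster on chromosome 6 showed the same division between neighbours. miR-200c-3p had 3.13, 4.08 and 2.54 RPM in the control samples and 0.947, 29.6 and 2.67 in the LPS samples. These values rest on 8, 7 and 6 reads in the control samples and on 3, 323 and 4 reads in the LPS samples. miR-141-3p had 27.8, 37.9 and 27.9 RPM in the control samples and 25.6, 20.6 and 15.3 in the LPS samples. All 3 LPS samples of miR-141-3p lay below all 3 control samples, and LPS replicate 2, where miR-200c-3p was highest, was the middle one of the LPS samples for miR-141-3p.

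Summed by seed, AAUACUG (miR-200b-3p, miR-200c-3p and miR-429-3p) came to 50.8 ± 6.52 RPM in the control samples and 72.6 ± 28.3 in the LPS samples, and AACACUG (miR-200a-3p and miR-141-3p) came to 39.0 ± 5.15 and 40.1 ± 21.3 (SD, n = 3 for each). Without LPS replicate 2, the mean of the LPS samples was 57.2 for AAUACUG and 28.1 for AACACUG. In LPS replicate 2 both seeds were above the other 5 samples, AAUACUG at 103 against 43.4 to 66.7 and AACACUG at 64.2 against 24 to 43.2.

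Among the members of the other group, miR-192-5p had 1102, 1148 and 902 RPM in the control samples and 1136, 825 and 915 in the LPS samples. LPS replicate 2 was the lowest of the 6 samples, and the groups overlapped. miR-194-5p, which both Mir194 hairpins make with the same sequence, had 37.1, 46.7 and 53.7 RPM in the control samples and 40.4, 160 and 44.7 in the LPS samples. LPS replicate 2 stood above every other sample, at a Wilson interval of 153 to 168, and the other LPS samples lay within the control range. miR-215-5p, the partner of miR-192-5p by seed, had 6.26, 5.83 and 3.8 RPM in the control samples and 4.10, 3.48 and 3.34 in the LPS samples. The groups overlapped by control replicate 3, and in each of the 3 pairs the LPS sample was the lower one.

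miR-203-3p had 3.91, 2.92 and 5.07 RPM in the control samples and 4.10, 2.93 and 3.34 in the LPS samples, on 5 to 32 reads a sample, and the groups overlapped. Across all 6 samples no read began with the first 18 bases of either strand of miR-203b, which RefSeq places on the opposite strand of the same locus.

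The remaining arms were near or at 0. Of the 19 member arms (the 5p arms of both Mir194 hairpins counted as 1), 14 had reads, 9 had reads in all 6 samples and 5 had none. Those without reads were Mir429-5p, Mir200c-5p, Mir192-3p, Mir194-1-3p and Mir203-5p. The 5p arm of Mir200a had 46 reads over the 6 samples against 564 of its 3p arm, and the 5p arm of Mir141 had 36 against 531. Mir200a-5p was at 3.11 RPM in LPS replicate 2 and at 0 to 1.89 in the other samples. Mir141-5p was at 2.38 RPM in LPS replicate 2 and at 0 to 2.33 in the others. Mir200b-5p, Mir194-2-3p and Mir215-3p had 3, 2 and 1 reads in all. The 3p strand thus held 92.5% to 100% of the reads of each miR-200 hairpin, and the 5p strand nearly all reads of Mir192, Mir194 and Mir215.

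The question of the design was whether 5 pg/ml LPS moved these miRNAs. Of the 14 member arms with reads, 7 passed the low-count filter and were compared by edgeR's quasi-likelihood test over 319 arms, with Benjamini-Hochberg adjustment. At an adjusted p under 0.05, none of the 7 rose or fell, against 0% of all tested arms higher and 0% lower. At an unadjusted p under 0.05 there were 8 arms, 2.51% of those tested, and again none of the members. DESeq2 and limma-voom likewise called 0 arms in each direction. The 7 members passed only where reads were frequent enough, so their number says nothing of the other 7.

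miR-141-3p had the smallest p of the 7. After normalization its level was 31.6 ± 6.65 CPM (normalized counts per 1000000) in the control samples and 20.5 ± 5.87 in the LPS samples (SD, n = 3), a log2 fold change of -0.61 with a standard error of 0.28 (adjusted p = 0.994 by edgeR). It was 1 of the 7 members whose LPS samples all lay below the control samples, where 1.57% of all tested arms did so, and 0 members had all LPS samples above the controls, where the share was also 1.57%. Without LPS replicate 2 the log2 fold change of miR-141-3p was -0.59 (standard error 0.31, adjusted p = 0.998 by edgeR). For miR-215-5p the log2 fold change was -0.56, with a standard error of 0.34, and for miR-192-5p it was -0.16, with a standard error of 0.20. By edgeR each had an adjusted p of 0.994.

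By pairs of the same replicate number, miR-200b-3p was higher with LPS in 3 of 3, as were 9.4% of all tested arms, and miR-141-3p and miR-215-5p were lower in 3 of 3, as were 12.9% of all tested arms. The other 4 tested members were higher in 2 of 3 pairs. The values above do not use the pairs, and with the pairs as a block in the edgeR fit no member passed the threshold.

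miR-200a-3p had the largest fold change of the tested members, 1.39 on the log2 scale (standard error 0.79, adjusted p = 0.994 by edgeR), and it became -0.11 (standard error 0.45) without LPS replicate 2. The log2 fold change of miR-194-5p was 0.83 (standard error 0.55, adjusted p = 0.994 by edgeR) and became -0.15 (standard error 0.20) without that sample. For miR-200b-3p it was 0.48 (standard error 0.26, adjusted p = 0.994 by edgeR) and 0.18 without it. miR-429-3p was at 0.06 (standard error 0.21, adjusted p = 0.994 by edgeR), and its sign turned to -0.015 without control replicate 1 and to -0.012 without LPS replicate 3.

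**Figure D2:**
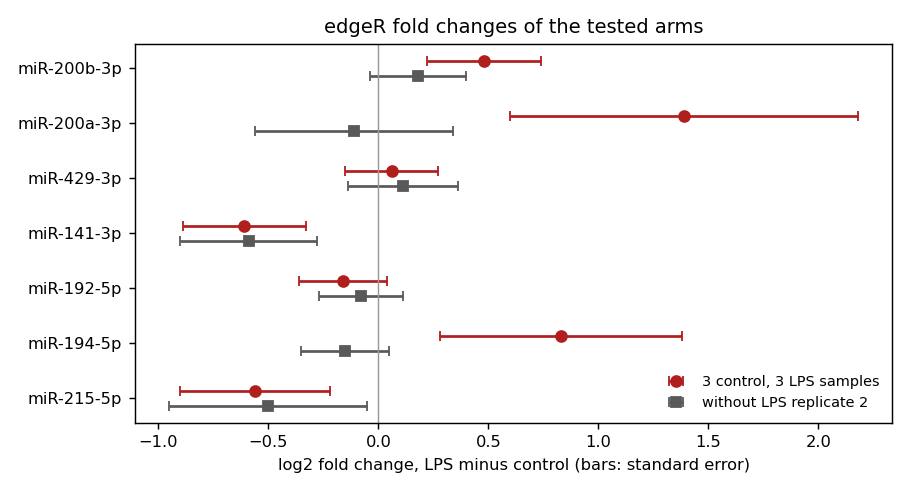
Log2 fold change of LPS over control from edgeR for the 7 member arms tested, with bars of 1 standard error. Red points use all 6 samples and grey squares leave out LPS replicate 2. miR-200a-3p moves from 1.39 to -0.11 and miR-194-5p from 0.83 to -0.15, while miR-141-3p stays near -0.6.

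miR-200c-3p and miR-203-3p had reads in every sample but did not pass the filter. The mean difference of LPS minus control was 7.81 RPM for miR-200c-3p (two-sided exact permutation p = 0.9) and -0.511 RPM for miR-203-3p (exact permutation p = 0.7). With 3 samples a group, 0.1 is the smallest p of this test. Its value for miR-200c-3p turned only on which samples stood with LPS replicate 2, whose level outweighed the others in any split. For miR-200c-3p the difference was -1.44 RPM without LPS replicate 2. When all 974 arms were tested with no low-count filter, miR-200c-3p had a log2 fold change of 1.89 (adjusted p = 0.00424 by edgeR) and miR-200a-3p one of 1.39 (adjusted p = 0.0182). In that fit 2.16% of the arms were called higher, and LPS replicate 2 alone was above the control samples for both miRNAs. None of the other member arms was called in it. When LPS replicate 2 was left out of the fit with no low-count filter, 0 arms were called in either direction (10 higher and 2 lower at an unadjusted p under 0.05), and the log2 fold change was -1.01 for miR-200c-3p and -0.08 for miR-200a-3p (adjusted p = 0.976 for both by edgeR).

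LPS replicate 2 was set against the other 5 samples for each member. On normalized counts, its ratio to the mean of the others was 5.66 for miR-200a-3p, 3.57 for miR-194-5p and 1.73 for miR-200b-3p. It was 0.914 for miR-429-3p, 0.782 for miR-192-5p, 0.753 for miR-141-3p and 0.732 for miR-215-5p. The median of these 7 was 0.914, beside 0.982 over all 319 arms tested, whose middle 50% ran from 0.779 to 1.38. LPS replicate 2 was at least 2 times the highest other sample for 2 of the 7 members, miR-200a-3p and miR-194-5p, and for 7.52% of all tested arms. It was the highest of the 6 samples for 3 of the 7 members and for 31.3% of all tested arms. It was the lowest for 1 member, miR-192-5p, and for 28.2% of all tested arms. miR-200c-3p, which was not among the tested arms, was 11.1 times the mean of the other samples by its level in RPM. The depth of this library and its low share of sequences seen once move with these values, and their part in the result was not tested.

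**Figure D3:**
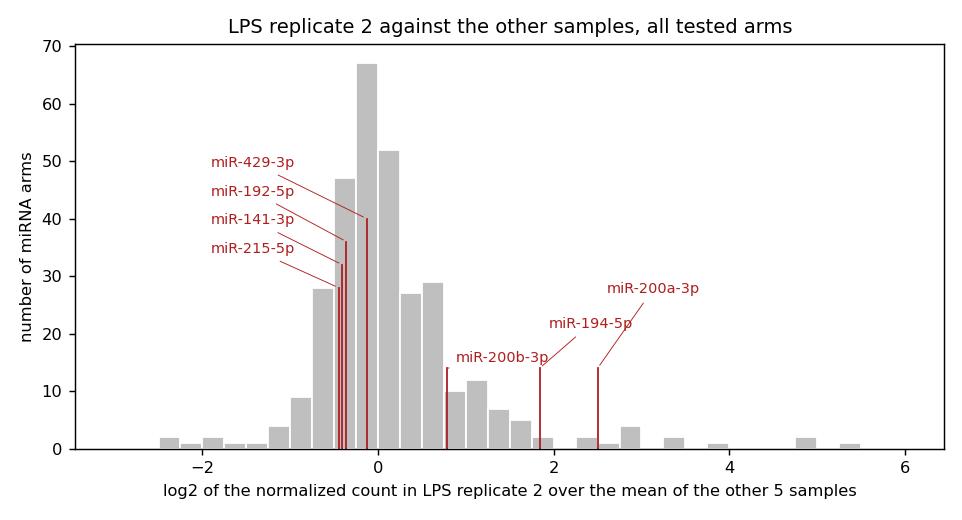
Log2 ratio of the normalized count in LPS replicate 2 to the mean of the other 5 samples for the 319 arms tested (grey histogram, number of arms). Red lines mark the 7 member arms tested: miR-215-5p, miR-141-3p, miR-192-5p and miR-429-3p lie just below 0, and miR-200b-3p, miR-194-5p and miR-200a-3p lie at 0.79, 1.84 and 2.5.

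Ratios between neighbouring hairpins do not depend on the normalization. In the 5 samples other than LPS replicate 2, miR-429-3p had 0.477 to 0.556 reads for each read of miR-200b-3p, and in LPS replicate 2 it had 0.275 (Wilson interval 0.232 to 0.325). miR-200a-3p had 0.164 to 0.370 reads per read of miR-200b-3p in the 5 samples and 0.754 (0.669 to 0.849) in LPS replicate 2. miR-200c-3p had 0.037 to 0.174 reads per read of miR-141-3p in the 5 samples and 1.44 (1.21 to 1.70) in LPS replicate 2. In both clusters, a miRNA that was higher in that library had a neighbour that was not, and the same held within both seeds.

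The ratio of miR-192-5p to miR-194-5p was 16.8 to 29.7 in the 5 samples and 5.16 (4.90 to 5.43) in LPS replicate 2. The ratio of miR-192-5p to miR-215-5p, which share a seed but not a cluster, was 176 to 277 in the 5 samples and 237 in LPS replicate 2, within that range. No test was made on these ratios, since 1 library gives no replicate of the difference.

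**Figure D4:**
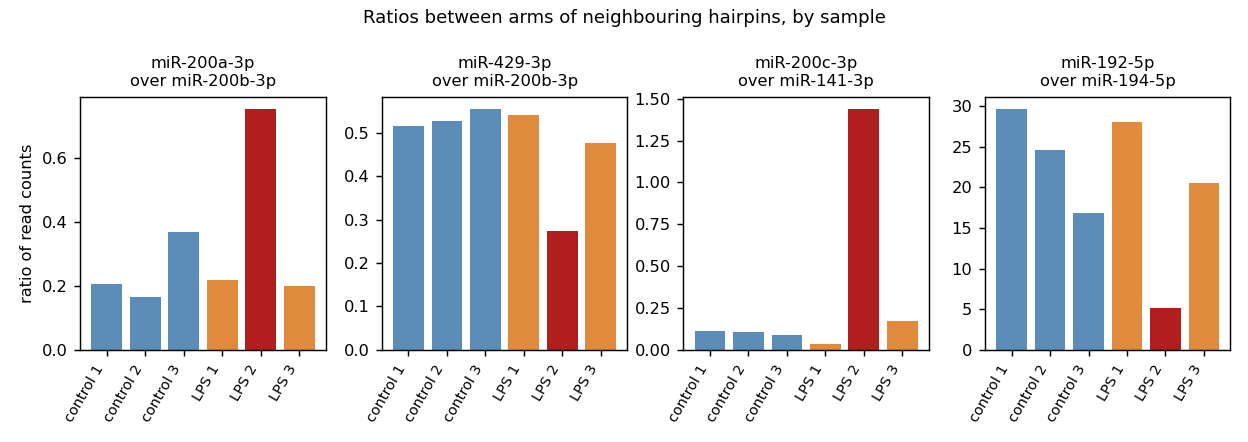
Ratios of read counts between arms of neighbouring hairpins in each sample (bars from 0, blue control, orange and red LPS, with LPS replicate 2 in red). In the 5 other samples miR-429-3p over miR-200b-3p stays between 0.477 and 0.556, and LPS replicate 2 departs from the other samples in all 4 ratios.

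The sequences behind the counts also differed between members. The commonest read of miR-200b-3p was 23 nt, 1 base longer than the RefSeq strand, and made up 79.9% of its reads in LPS replicate 2 and 59.5% in the other samples pooled. The commonest read of miR-141-3p was 21 nt, 1 base shorter than the RefSeq strand, at 89.8% and 89.5%. The RefSeq strand itself made up 1.11% of miR-200b-3p in LPS replicate 2 and 0% of miR-141-3p there, so counting only annotated strands would have left out most reads of both. For miR-192-5p the RefSeq strand was the commonest read in every sample, at 59.6% in LPS replicate 2 and 66.3% to 71.3% in the others. The forms named here are written as DNA letters, since the counts of these reads carry the levels above, in lower case where they match the hairpin.
miR-200b-3p, commonest read: taatactgcctggtaatgatgac
miR-141-3p, commonest read: taacactgtctggtaaagatg
miR-192-5p, commonest read: ctgacctatgaattgacagcc
miR-192-5p, read that starts 1 base later: tgacctatgaattgacagccag

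A start shifted by 1 base moves the seed. For miR-192-5p, 13.3% to 17.1% of reads in the 5 samples and 19.0% in LPS replicate 2 began 1 base downstream of the RefSeq start. Of miR-203-3p, 59.4% of 32 reads in LPS replicate 2 and 30% to 46.2% in the other samples began 1 base downstream. For miR-200a-3p and miR-215-5p every read began at the RefSeq start. For miR-194-5p, miR-200b-3p, miR-141-3p, miR-429-3p and miR-200c-3p at least 93.8% did in each sample, apart from miR-200c-3p in the control sample with 7 reads, at 85.7%.

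The 3′ ends of miR-194-5p and miR-200c-3p, both higher in LPS replicate 2, are given next, beside those of miR-200a-3p and miR-200b-3p, also higher there. Of the miR-194-5p reads, 43.2% were longer than the RefSeq strand in LPS replicate 2 and 9.47% to 17.9% in the other samples. Reads with 1 to 3 bases that the hairpin does not hold were 13.3% of miR-194-5p in LPS replicate 2 and 1.25% to 4.69% in the others, while over all hairpin reads this share was 11.9% in LPS replicate 2 and 10.5% to 11% in the others. For miR-200b-3p, reads with such bases were 18.3% in LPS replicate 2, below the 22.1% to 50.9% of the others. Longer reads of miR-200a-3p were 43.4% there, below the 53.3% to 78.6% of the others. The share of longer miR-200b-3p reads (98.3%) and of miR-200a-3p reads with such bases (4.19%) lay within the range of the others. The main forms of miR-194-5p and miR-200c-3p are shown with bases that do not match the hairpin in capitals.
miR-194-5p, RefSeq strand: tgtaacagcaactccatgtgga
miR-194-5p, 1 base longer: tgtaacagcaactccatgtggaa
miR-194-5p, with an added base: tgtaacagcaactccatgtggaaT
miR-200c-3p, RefSeq strand: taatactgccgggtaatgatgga
miR-200c-3p, 1 base shorter: taatactgccgggtaatgatgg
miR-200c-3p, with an added base: taatactgccgggtaatgatggaT

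In LPS replicate 2 the RefSeq strand made up 53.3% of miR-194-5p, the form 1 base longer 29.3% and the form with an added T 7.27%, against 83.3%, 10.5% and 0.805% in the other samples pooled. For miR-200c-3p the form 1 base shorter made up 51.4% in LPS replicate 2 and 10.7% of the 28 reads in the other samples pooled, and the RefSeq strand 14.2% and 53.6%. With so few reads in the other samples, the forms of miR-200c-3p cannot be compared sample by sample.

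The longer end also bears on which of the Mir194 hairpins the reads match. The base after the RefSeq strand is A in Mir194-2 and C in Mir194-1. Of the miR-194-5p reads that matched over their whole length, 571 were held only by Mir194-2, 6 only by Mir194-1 and 1420 by both. In LPS replicate 2 these counts were 518, 3 and 993. An A added to a strand from Mir194-1 after cutting would read the same as Mir194-2, so these counts do not settle the origin. Neither miR-192-5p, the neighbour of Mir194-2, nor miR-215-5p, the neighbour of Mir194-1, was raised in LPS replicate 2.

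**Figure D5:**
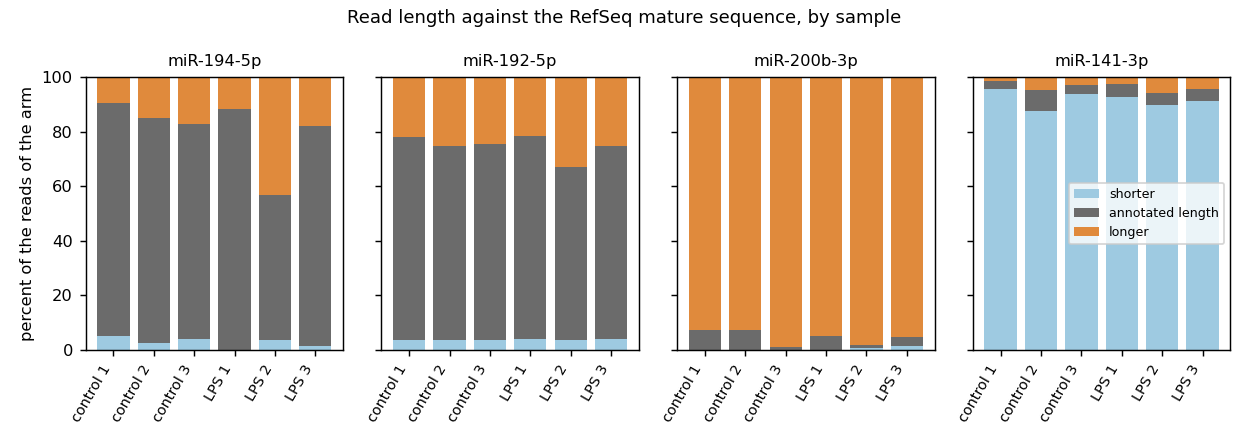
Percent of the reads of 4 member arms that are shorter than (blue), as long as (grey) or longer than (orange) the RefSeq mature strand, in each of the 6 samples. Longer reads of miR-194-5p make up 43.2% in LPS replicate 2 against 9.47% to 17.9% in the other samples, whereas miR-200b-3p is longer in 92.6% to 98.8% of reads and miR-141-3p shorter in 87.7% to 95.8% in every sample.

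The libraries carried miR-223 and miR-142, which define myeloid and haematopoietic cells. miR-223-3p was at 5607 to 6089 RPM in the 5 samples and 5699 in LPS replicate 2, and miR-142-5p was at 23282 to 27085 and 18107. Their other arms moved differently, miR-223-5p at 450 to 564 and 387, and miR-142-3p at 3741 to 4722 and 7757. The 6 hairpins listed for macrophage and myeloid cells summed to 361572 to 409588 RPM in the 6 samples. Of the 12 arms of this list, LPS replicate 2 was above the other samples for 4, below for 3 and within their range for 5. Over all tested arms it was the highest sample for 31.3% and the lowest for 28.2%. The macrophage and myeloid list is led by miR-22-3p, at 196228 to 200003 RPM in the 5 samples and 191707 in LPS replicate 2, and miR-22-3p and miR-21a-5p, which many other cell types also express, made up 78.3% to 89.8% of the sum. Of 9 other hairpins listed as epithelial, all 9 had reads, with a sum of 314 RPM in LPS replicate 2 and 236 to 397 in the others. That list is led by miR-182-5p at 172 to 317 RPM in the 5 samples and 248 in LPS replicate 2, and this arm alone made up 73.1% to 84.6% of the sum. By arm, LPS replicate 2 was above all 5 other samples for 4 of the 12 epithelial arms with reads and within their range for the other 8, beside 31.3% of all tested arms where it was highest. These 4 arms, with 0 to 10 reads a sample in the others, were miR-449a-5p at 6.86 RPM against 0 to 2.21, miR-31-5p at 5.03 against 1.27 to 3.16, miR-183-3p at 3.66 against 0 to 1.17 and miR-375-3p at 2.01 against 0 to 2. miR-205-5p, a defining miRNA of stratified epithelium, had 0 to 2 reads a sample, and miR-375-3p, known from endocrine and glandular epithelium, had 0 to 3 reads in the 5 samples and 22 in LPS replicate 2.

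Among the lists for other cell types, the erythroid list was lower in LPS replicate 2, at 612 RPM against 784 to 1032, but miR-486-5p, counted with Mir3107, made up 99.5% to 99.8% of it. The defining erythroid miRNAs were near 0, miR-451a with 0 to 6 reads a sample and miR-144 with 0 to 1, and miR-486-3p was at 2.56 RPM in LPS replicate 2 against 0.583 to 2. The lymphoid miRNA miR-150 was higher, at 49.2 against 14.9 to 23.2. The stromal and endothelial list was at 62.9 against 44.0 to 57.9, led by miR-126a-5p at 43.9 against 29.0 to 39.7. The hepatocyte miRNA miR-122-5p was at 1.83 against 0 to 0.423, on 20 reads in LPS replicate 2. The neural list, led by miR-129-5p at 4.39 RPM in LPS replicate 2, was at 12.9 against 4.65 to 14.8, and miR-124 was at 0. The muscle list had only miR-133a-3p, at 0 to 3 reads a sample, with miR-1a and miR-206 at 0. Of the members, miR-192-5p and miR-194-5p are also liver and gut miRNAs. The part of other cells in the members' reads was not tested.

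By its pattern over the 6 samples, the summed miR-200 family was nearest to miR-26b-3p, with a mean absolute difference of 0.0560 between log2 levels centred on their own means. miR-425-5p (0.0710), miR-142-3p (0.0752), miR-342-3p (0.104) and let-7b-5p (0.110) followed. The ratio of LPS replicate 2 to the mean of the other samples was 1.92 for the summed miR-200 family and 1.74 to 2.31 for these 5 arms. Over the 5 samples without LPS replicate 2, miR-26b-3p was the only 1 of these among the nearest 5 (0.0475), and the others ranked 14 to 50 of 315 arms, so their likeness rests on that library. The summed miR-192, miR-194 and miR-215 arms were nearest to miR-674-3p (0.0351), miR-98-3p (0.0406), miR-500-3p (0.0533), let-7d-5p (0.0599) and the 3p arm shared by let-7a-1 and let-7c-2 (0.0604). Of these 5, miR-674-3p, miR-98-3p and miR-500-3p were also among the nearest 5 without LPS replicate 2, and the others ranked 9 and 11 of 316. This sum is mostly miR-192-5p, and the likeness is a description over 6 samples of 319 arms.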

How the data were processed

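Small RNA of 3 control and 3 LPS samples was sequenced by the authors on an Illumina HiSeq from TruSeq small RNA libraries and trimmed with perl scripts and Btrim64. The deposited files hold raw counts of each distinct trimmed read of 11 to 40 nt, without miRNA names or normalization. The authors' mapping was not used here, and the mm9 build of their processing notes does not enter the counts.

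Reads were matched to 1174 GENCODE M21 hairpins (GRCm38) as described above. A matched part of 15 nt was the shortest allowed. Arms with 50% or more of their reads in common were joined, and reads of several arms were given to the arm with most reads of its own. Of 1384 RefSeq mature strands, 1384 fell on the arm in their name. edgeR 4.0.16 (R 4.3.3) with filterByExpr and TMM was the main test, and DESeq2 1.42.0 and limma 3.58.1 were alternatives. The mapping was tested on pieces of the member hairpins and on random sequences. The fit was tested on simulated counts with less spread between samples than these data (common dispersion 0.109) and no outlying library. That test therefore cannot say how many changes the fit would find here. The standard error was derived from the fold change and the F statistic (the fold change on the log2 scale, without its sign, over the root of F). edgeR can raise p to a Poisson bound, so p and standard error need not match.

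The named arms were every arm of the members, the leading arm and summed level of each cell-type list, and the 5 nearest arms by pattern. Further miRNAs of these lists (miR-223, miR-142, miR-21a, miR-146a, miR-155, miR-205, miR-375, miR-449a, miR-31, miR-183, miR-451a, miR-144, miR-486-3p, miR-124, miR-1a and miR-206) were named after their values were seen. So were miR-132, miR-147 and miR-212, which are on none of the lists. The members and lists were chosen with earlier results of these data known. Deviations from the group means correlated at 0.59, 0.258 and 0.278 for samples with the same replicate number and at -0.382 to 0.151 otherwise. Such deviations sum to 0 within a group, so these values depend on each other and cannot settle whether the samples are paired. The labels do not state pairing. Replicate numbers were therefore compared as pairs only beside the main fits.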

Additional observations from a re-analysis of the deposited data

How the results depend on the processing

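The number of arms past the adjusted threshold was 0 higher and 0 lower in every setting but the fit with no low-count filter on all samples. When no low-count filter was used, 21 arms passed as higher and 0 as lower, miR-200a-3p among the former at a log2 fold change of 1.388. A block for the replicate number gave counts of 0 and 0, put miR-200a-3p at 0.957 and miR-194-5p at 0.527, and changed no call. Of 137 values for the 7 tested members under 20 alternatives, 126 kept their direction and their side of the threshold, 1 newly passed it and 10 reversed. The filter of 10 reads in every sample gave no value for miR-200a-3p or miR-215-5p, and leaving out control replicate 1 gave none for miR-215-5p. With 1 replicate left out at a time, the log2 fold change ranged from -0.112 to 1.891 for miR-200a-3p, from -0.150 to 1.153 for miR-194-5p and from -0.015 to 0.142 for miR-429-3p. miR-429-3p was -0.021 with upper-quartile normalization. In the fit with the replicate block but not pair 2, an alternative chosen after seeing the data, miR-200a-3p was -0.151, miR-194-5p -0.061 and miR-192-5p 0.032. With neither the low-count filter nor LPS replicate 2, chosen likewise, miR-200a-3p was -0.083 and miR-194-5p -0.126, and 0 arms passed. The cause of these reversals was not tested.

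The summed levels moved by construction with the denominator. With all reads as the denominator, the control mean was 62.1 for the miR-200 family, 747 for miR-192, miR-194 and miR-215 and 2.67 for miR-203, and the LPS means were 73.7, 664 and 2.20. Without the most abundant arm in the denominator the control means of the first 2 were 114 and 1373, and the LPS means were 145, 1299 and 4.30. With sequences seen once dropped, miR-203 was at 2.29 and 2.31. With RefSeq strands only, chosen after seeing the data, the control and LPS means were 10.1 and 16.0, 757 and 692, and 0.955 and 0.153. With 1 replicate left out, the LPS mean of the miR-200 family ranged from 87.8 (without LPS replicate 2) to 133. Depth limits the arms with few reads: miR-200c-3p and miR-203-3p had 3 to 13 reads in each sample but LPS replicate 2, and Mir200b-5p, Mir194-2-3p and Mir215-3p had 3, 2 and 1 in all.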
